A study of Mus musculus with 28 samples.

Results

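Chromatin of a mouse mammary epithelial line was compared before TGF-β and after 24h of it, when the epithelial-mesenchymal transition (EMT) is established. The comparison takes 6 of the 28 samples of the series, out of 15 libraries of histone H3 acetylated at lysine 27 (H3K27ac), and was chosen by its labels: 3 libraries at 0h and 3 at 24h. The 10 RNA and 3 input samples are not analysed here. All 6 libraries are bulk chromatin of E9 cells, a subclone of the NMuMG line (normal murine mammary gland epithelium). The 0h cells received no TGF-β, while the 24h cells received TGF-β at 2 ng/ml and, in the terms of the study, the solvent DMSO, which the protocol gives 30 min earlier. Chromatin was precipitated with antibody ab4729. A single subclone stands for the cell type, the labels of single libraries do not name the solvent, and nothing states that libraries of a group came from separate cultures, so the spread between them may be technical.

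H3K27ac is laid down by the acetyltransferases p300 and CBP on nucleosomes that flank active promoters and enhancers, with a dip over the nucleosome-poor site where transcription factors sit. TGF-β binds the receptors Tgfbr2 and Tgfbr1, which phosphorylate Smad2 and Smad3. These enter the nucleus with Smad4 and act at enhancers beside other factors, of which AP-1, the dimer of Fos and Jun proteins, is the best known. In mammary epithelium this leads to loss of cell contacts, stress fibres and secreted matrix, driven by the Snai and Zeb repressors.

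The deposited lists hold peaks that MACS2 called in each library by itself, 52221 to 59658 per library at 0h and 56759 to 68050 at 24h. Overlapping peaks were merged into 79001 regions. Read totals are not given in these lists, so depth is unknown. The level of a region is its summit pileup, the number of fragments stacked at the summit, recovered from each peak's fold enrichment and p value and divided by a factor for the library. Of 6 library-wide values none could pass a test, since an exact two-sided permutation test of 3 against 3 cannot go below p = 0.1. Within each replicate number the 24h library had more peaks (7072 more on average), a lower share of summits in promoters (-1.74 percentage points) and a higher share over 50 kb from a start site (1.17 percentage points). Of the 8 markers of mammary epithelium, Krt8, Krt18, Cdh1, Grhl2 and Elf3 had a peak within 1 kb of the start site in all 6 libraries, while Epcam, Cldn7 and Esrp1 had none in any. The 6 endothelial markers had no start-site peak in any library. Of the 6 fibroblast markers Col1a1 alone had one in every library, and the summed start-site pileup of that list was 49.3 to 76.6 at 0h and 96.7 to 110 at 24h. The lists of 6 haematopoietic and 5 adipocyte markers reached at most 16.5 and 30.7, from Spi1 and from Cidec in 1 library. In bulk chromatin, a change in a share of the cells and a change in every cell cannot be told apart.

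The sequences of 10 regions are shown because these carry the largest differences near genes that the results below turn on. Each is 120 bases of the mm9 assembly, plus strand, centred on the AP-1 motif nearest to the region's summit or, where none lay within 500 bp, on the summit itself. Capitals mark the AP-1 motif TGANTCA and the SMAD motif GTCTGNC or its reverse complement. The 3 regions that rose near Pmepa1 (chr2:173146860-173146979), Jag1 (chr2:137480672-137480791) and Prss22 (chr17:24135351-24135470) held an AP-1 motif 291, 62 and 283 bp from the summit.
Pmepa1: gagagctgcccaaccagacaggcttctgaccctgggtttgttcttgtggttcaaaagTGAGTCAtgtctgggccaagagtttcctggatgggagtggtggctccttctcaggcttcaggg
Jag1: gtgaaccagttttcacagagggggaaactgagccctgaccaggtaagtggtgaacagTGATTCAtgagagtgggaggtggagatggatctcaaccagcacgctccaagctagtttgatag
Prss22: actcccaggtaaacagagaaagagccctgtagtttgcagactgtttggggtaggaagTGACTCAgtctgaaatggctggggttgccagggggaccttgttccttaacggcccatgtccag

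The regions near Spsb1 (chr4:149249794-149249913), Itgb3 (chr11:104486159-104486278) and Ltbp2 (chr12:86225522-86225641) had a peak in all 3 libraries at 24h and in none at 0h. Their AP-1 motif lay 229, 228 and 206 bp from the summit, which at Itgb3 is just before the first base of the merged region.
Spsb1: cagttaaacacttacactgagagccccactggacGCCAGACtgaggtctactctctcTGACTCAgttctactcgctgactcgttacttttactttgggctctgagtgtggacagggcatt
Itgb3: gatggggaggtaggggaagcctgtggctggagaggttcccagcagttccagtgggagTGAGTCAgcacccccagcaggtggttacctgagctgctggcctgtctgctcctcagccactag
Ltbp2: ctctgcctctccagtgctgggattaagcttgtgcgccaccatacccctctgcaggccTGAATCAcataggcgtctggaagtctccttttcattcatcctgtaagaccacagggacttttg

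Of the regions that fell or were lost, Tgfbr3 (chr5:107724882-107725001) and Zbtb16 (chr9:48546471-48546590) held the motif 166 and 439 bp from the summit. Ankrd55 (chr13:112868026-112868145) and Grhl3 (chr4:135126496-135126615) held none within 500 bp and are shown at the summit.
Tgfbr3: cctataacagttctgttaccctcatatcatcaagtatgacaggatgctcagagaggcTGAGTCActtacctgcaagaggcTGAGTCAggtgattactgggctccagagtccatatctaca
Zbtb16: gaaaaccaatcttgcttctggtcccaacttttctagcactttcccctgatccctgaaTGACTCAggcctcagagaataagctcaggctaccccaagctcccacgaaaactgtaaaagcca
Ankrd55: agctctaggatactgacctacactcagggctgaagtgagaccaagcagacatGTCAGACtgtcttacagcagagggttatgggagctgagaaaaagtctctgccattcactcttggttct
Grhl3: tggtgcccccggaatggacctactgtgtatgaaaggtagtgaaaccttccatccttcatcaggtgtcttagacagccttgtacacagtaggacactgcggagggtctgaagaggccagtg

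The comparison asks where acetylation differs once the transition is established, first by which regions are called at all. Of the 79001 regions, 4682 (5.93%) were gained, with a peak in all 3 libraries at 24h and in none at 0h, and 1982 (2.51%) were lost, the reverse. These are counts of calls with no test, and the 24h lists held more peaks. With only the 50000 peaks of lowest p value in each library, 3314 regions were gained and 2603 lost. Gained regions had a median width of 683 bp and lost regions one of 579.5 bp, against 584 bp for all merged regions. Near Spsb1 (chr4:149249586-149250878), which codes for a substrate adaptor of an E3 ubiquitin ligase, the region shown above had a summit pileup of 165, 131 and 190 at 24h. The integrin gene Itgb3 had a gained region in an intron (chr11:104486260-104487160) with 150, 51.9 and 186, the lowest being 24h replicate 2. Ltbp2, an extracellular protein of the family that binds latent TGF-β, had one 8.31 kb from its start site (chr12:86225386-86226088) with 77.8, 33.0 and 79.8. On the other side, Zbtb16, a zinc finger repressor, lost an intronic region (chr9:48546491-48548241) that had 48.4, 26.4 and 54.8 at 0h. Grhl3, a grainyhead-like factor of surface epithelia, lost an intronic region 2.99 kb from its start site (chr4:135126361-135127196) with 49.1, 31.4 and 71.3.

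Levels were then compared in the 29951 regions with a peak in all 6 libraries. Of these, 2663 (8.89%) were higher at 24h and 1915 (6.39%) lower (limma, adjusted p below 0.05), with a median log2 difference of 1.17 and -1.04. With the replicate number as a block the counts were 4865 and 5056. At least 2-fold differences were seen in 1804 of the higher and 1044 of the lower regions. Ranking the pileup within each library in place of its level moved the share of calls that were higher from 58.2% to 69.7%. Without 24h replicate 3 that share was 46.7%, with 1988 regions higher and 2272 lower.

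The steepest rise lay at the promoter of Prss22, a secreted serine protease (chr17:24134390-24136509, 0.061 kb from the start site). Its pileup was 15.9, 16.3 and 24.1 at 0h and 241, 164 and 249 at 24h, 11.6-fold higher (log2 difference 3.54 ± 0.27 SE, adjusted p = 2.33e-06). An intergenic region 45.2 kb from Pmepa1, an inhibitor of TGF-β receptor signalling (chr2:173146144-173147978), had 12.1, 17.6 and 20.8 at 0h and 173, 149 and 227 at 24h (log2 3.45 ± 0.28, adjusted p = 2.33e-06). A region 538 kb from the Notch ligand gene Jag1 (chr2:137479080-137481573) had 12.8, 16.3 and 20.8 at 0h and 196, 76.7 and 175 at 24h (log2 3.08 ± 0.34, adjusted p = 2.55e-05). In all 3 regions the lowest library at 24h was replicate 2. The groups did not overlap, in regions that were named for the size of their difference. The other regions of the largest rise lay near Ncald, Morn4, Bard1, Fam180a and Coro6, with log2 differences of 3.33, 3.22, 3.12, 3.09 and 3.02.

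The steepest fall, 13.1-fold, lay 18.5 kb from Ermp1 (chr19:29740660-29742562), with 560, 615 and 603 at 0h and 25.9, 90.8 and 38.9 at 24h (log2 -3.72 ± 0.30, adjusted p = 2.33e-06). A neighbour near the melanosome gene Mlana (chr19:29749464-29751756) had 890, 945 and 1006 at 0h and 85.0, 261 and 97.8 at 24h. The local background, the fragment level MACS2 weighed each summit against, was 5.08 and 11.8 times the library median at this pair of regions. A region 211 kb from Ankrd55 (chr13:112867712-112869321) had 131, 76.6 and 138 at 0h and 10.7, 14.2 and 25.9 at 24h (log2 -2.82 ± 0.34, adjusted p = 5.08e-05). Near Tgfbr3, which codes for the co-receptor betaglycan, a region 6.13 kb from the start site (chr5:107724482-107725113) had 90.7, 77.8 and 83.3 at 0h and 18.8, 17.7 and 17.0 at 24h (log2 -2.23 ± 0.26, adjusted p = 4.26e-05). The libraries of a group lay close together in this last region, and 24h was below 0h in every pair. Other regions of the largest fall lay near Keg1, Stk32b, Cpeb4, Oas1f and Gm3150, with log2 differences of -2.73, -2.67, -2.55, -2.52 and -2.47.

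**Figure D1:**
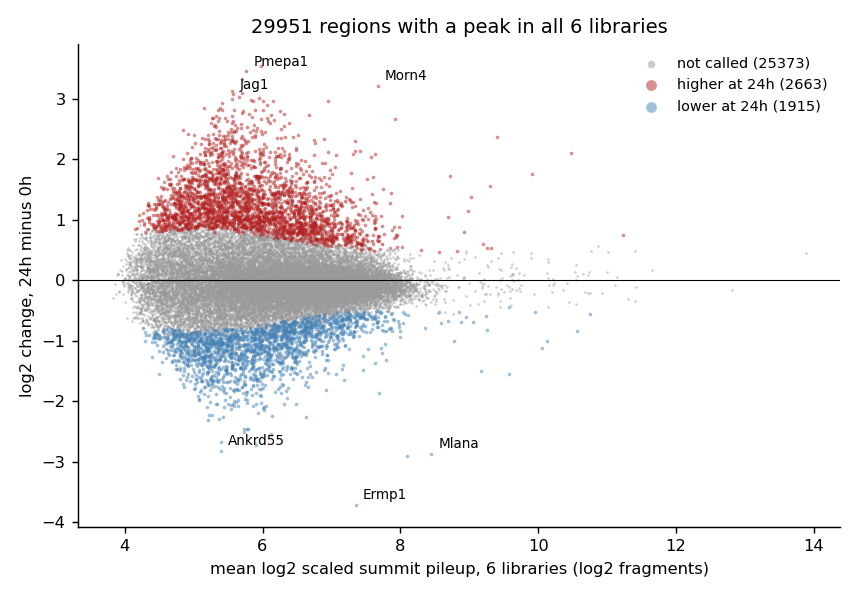
Each point is 1 of 29951 regions with a peak in all 6 libraries, by its mean log2 scaled summit pileup (x axis, log2 fragments) and its log2 difference, 24h minus 0h (y axis). Red points are the 2663 regions called higher, blue the 1915 called lower and grey the rest. The large differences lie at low and middle pileup, and Morn4, Mlana and Ermp1 stand to the right of most regions of their size of difference.

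The local background recovered with the pileup was mostly called the same way. Both are solved from the same fold enrichment and p value of a peak, so the measures are not independent. Of the 2663 higher regions, 2245 were also called higher by the local background, and 256 by fold enrichment, the ratio of summit to background. In 898 of the 2663 the fold enrichment was lower at 24h. Of the 1915 lower regions, 1557 were also called lower by the background and 108 by fold enrichment. In 657 of the 1915 the fold enrichment was higher at 24h. The sums per gene below were not repeated with fold enrichment. The covered width was called in the same direction in 480 and 214 regions. At Prss22 the fold enrichment was 4.31, 3.39 and 4.98 at 0h and 4.67, 5.63 and 4.26 at 24h, while at Pmepa1 it was 3.97, 3.74 and 5.93 against 8.36, 9.95 and 8.03. Fold enrichment as the measure called 390 regions higher and 456 lower over all, 46.1% of them higher. Of the 16 shared regions of the largest rise or fall named above, Pmepa1, Ncald, Morn4, Coro6 and Ermp1 passed the test by fold enrichment and the other 11 did not. Among those 11 the log2 difference of fold enrichment was 0.21 at Prss22 (adjusted p = 0.619), 0.35 at Jag1 (adjusted p = 0.292), -0.47 at Ankrd55 (adjusted p = 0.158) and -0.02 at Fam180a (adjusted p = 0.967). Whether the background is broad acetylation or another local feature was not tested.

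Promoter regions were seldom called. Of 10191 regions with the summit in a promoter (1000 bp before to 100 bp after a start site), 1.26% were gained and 0.883% lost, against 6.62% and 2.75% of the 68810 others. Of promoter regions with a peak in all 6 libraries, 1.39% of 7249 were higher and 1.67% lower. Of those outside promoters, 2562 of 22702 (11.3%) were higher and 1794 (7.90%) lower. The share of higher regions was 1.17% up to 1 kb from a start site, 12.7% from 1 to 10 kb, 14.7% from 10 to 50 kb and 15.8% from 50 to 200 kb. The 4247 regions over 200 kb away held 6.62% gained and 4.36% lost regions. Intergenic regions were called at a higher rate than intronic ones, with 13.9% against 11.3% higher and 10.3% against 7.18% lower.

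**Figure D2:**
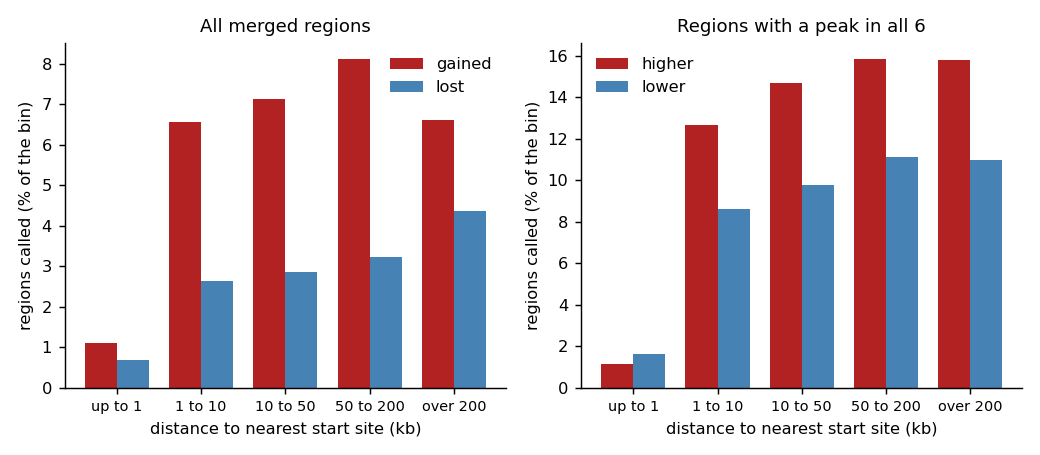
Bars give the share of regions called, in % of all regions in a bin of distance to the nearest start site (kb). The left panel shows gained (red) and lost (blue) regions among all 79001, and the right panel higher and lower regions among those with a peak in all 6 libraries. Bars up to 1 kb stay under 2% in both panels, and every bin beyond 1 kb has more gained than lost and more higher than lower regions.

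By chromosome, the gained share ran from 4.85% on chromosome 14 to 7.32% on chromosome 13, and the share of higher regions from 2.38% on the X chromosome to 12.3% on chromosome 15. Called regions also lay near regions called the same way. Of the gained regions, 33.0% had a higher region within 50 kb and 7.497% a lower one, against 23.7% and 17.1% of all regions. The shares of all regions count each higher or lower region as its own neighbour, so they are overstated. Of the lost regions, 27.6% had a lower neighbour and 10.9% a higher one. These shares were not tested, since neighbouring regions are not independent.

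AP-1 motifs were described because AP-1 binds many of the enhancers active in epithelial cells under TGF-β. In the 1000 bp around the summit, TGANTCA, which reads the same on both strands, was found in 70.6% of gained, 69.8% of higher, 36.6% of lower and 28.8% of lost regions, against 44.9% of all merged regions. This window was chosen after the data were seen. The matches stood beside the summit, not on it. From 100 to 500 bp there were 1.251 matches per region per kb in gained, 1.304 in higher, 0.504 in lower and 0.371 in lost regions, and 0.712 in all regions outside promoters with a peak in all 6 libraries. Within 100 bp the density was 0.328, 0.274, 0.287 and 0.277, against 0.266. In the 200 bp around the summit, the window planned at first, the motif was accordingly found in 6.09% of gained, 5.11% of higher, 5.33% of lower and 5.15% of lost regions, against 5.82% of all. A match is a description of sequence and not a bound site.

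**Figure D3:**
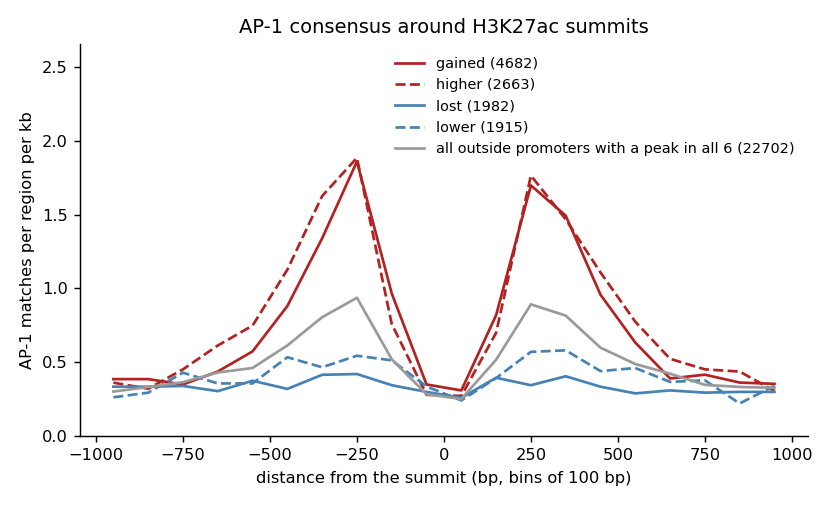
Lines give AP-1 motif matches per region per kb (y axis) in bins of 100 bp by distance from the summit (x axis, bp). Red lines are gained (solid) and higher (dashed) regions, blue lines lost (solid) and lower (dashed) regions, and grey all regions outside promoters with a peak in all 6 libraries. Red lines peak on both sides of the summit at 250 bp and all lines meet at the summit, where the density is under 0.4.

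Another 12 motifs were searched on both strands in the same 1000 bp, and none holds the AP-1 letters. SMAD (GTCTGNC) was found in 54.0% of gained, 54.4% of higher, 42.5% of lower and 40.2% of lost regions, against 45.7% of all. ETS (CAGGAAG) followed the same order with 43.3%, 45.1%, 38.8% and 34.6%, against 38.7% of all. FOX (TGTTTAC) was found in 13.6%, 14.6%, 20.6% and 22.2%, against 15.3% of all, and the letters AGATAA, bound by GATA factors, were found in 44.7%, 42.4%, 47.6% and 50.8%, against 41.6%. RUNX (TGTGGTT) stood at 27.1% and 26.8% in gained and higher regions against 22.6% and 23.9% in lower and lost ones and 23.5% of all. In gained and in lost regions, TEAD (GGAATG) was found in 50.2% and 53.8%, against 47.5% of all, and the E-box (CAGGTG) in 48.3% and 54.4%, against 51.2%. CEBP (TTGCNNAA) was found in 35.2% and 40.8%, against 35.5% of all, and SOX (ACAATG) in 45.5% and 42.9%, against 39.7%. The motif of the grainyhead-like factors (GRHL, AACNNGTT) was found in 14.1% and 15.7%, against 14.4% of all, and the CRE (TGACGTCA) in 0.854% and 0.959%, against 1.62%. KLF/SP (GGGCGG), a letter string of CpG islands, was found in 12.8% of gained and 14.4% of lost regions, against 28.7% of all merged regions and 21.9% of those outside promoters.

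Per gene, the scaled pileups of all regions nearest to its start site were summed. A gene said to rise or fall below is one whose sum does. The sum is acetylation and not expression, and the nearest gene need not be the one a region acts on. Of 14626 protein-coding genes, 1810 (12.4%) were higher at 24h and 889 (6.08%) lower. With the replicate number as a block, 2564 of the 14626 were higher and 1691 lower, the background for list counts with the block. With only the 50000 peaks of lowest p value in each library, 1490 genes were higher and 1021 lower. Of the 1810 higher genes, 825 had a start-site peak in all 6 libraries. Of the same genes, 1661 had a gained or higher region anywhere and 238 had one at the start site. For the lower genes these counts were 419, 752 and 148. Some 133 higher genes also had a lost or lower region, and 69 lower genes a gained or higher one. Both gained and lost regions were found at 458 genes. Genes differ in how many regions they hold, and the list shares below are not matched for that number. Its part in those shares was not tested. The lists were also chosen with earlier results of these data known, and they include genes that the study names as changed.

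Spsb1 had the most gained regions, 12, and summed to 42.3, 43.9 and 58.1 at 0h and 1182, 821 and 1348 at 24h (log2 difference 4.26 ± 0.20, adjusted p = 2.12e-05). Its promoter region also rose, from 42.3, 43.9 and 37.3 to 108, 108 and 83.8. Pmepa1 followed with 11 gained and 7 higher regions and sums of 883, 1065 and 1078 against 4448, 3001 and 4409, 3.92-fold higher (log2 1.94 ± 0.20, adjusted p = 0.000339). Jag1 and Ltbp1, which codes for a protein that tethers latent TGF-β to the matrix, had 10 gained regions each and rose 1.95-fold and 2.77-fold. Basp1, a membrane-bound protein of the growing neurite, had 9 and rose 2.76-fold. In all 5 genes every 24h library stood above every 0h library, as in 1807 of the 1810 higher genes. Over all 14626 genes, 2750 had every 24h library above every 0h library and 2015 the reverse.

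No peak was called at 0h near 286 of the higher genes, and no peak at 24h near 82 of the lower ones. A library without a peak added 0 to the sum, so these genes entered the test through the calls of a single group. They are kept in the counts of higher and lower genes, also in the lists, and their p values are not support beyond those calls. Those with the largest differences are given by their values, since a fold against 0 depends on the constant added. Pvrl4, the adhesion molecule nectin-4, was at 0 in the 0h libraries and at 403, 275 and 374 at 24h. The proteoglycan gene Cspg4 was at 0 and then at 314, 212 and 377, and Ltbp2 at 0 and then at 296, 127 and 242. Hmcn2, Hs3st3a1, Izumo1, Ctsw, Tusc5 and Sorcs2 were likewise at 0 in every 0h library. Myrip and Prl had a peak in 1 library at 0h. Among the lower genes Zbtb16 was at 268, 181 and 324 at 0h and at 0 in every 24h library, with 6 lost regions. The solute carrier gene Slc43a3 was at 144, 79.1 and 174 and then at 0, and so were Prg3, Speer4b, Taar4 and Luzp2. Anxa9 fell from 156, 195 and 212 to 0, 23.6 and 19, and Irf4 from 137, 196 and 182 to 0, 21.2 and 24.9. Sim1, Tubb1, Olfr1344 and Vps13d made up the rest of the 12 with the largest fall, and Vps13d rests on a short gene model.

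Of genes with many lost regions, Sall3, a zinc finger factor of development, had 8 and summed to 1176, 1175 and 1440 at 0h and 356, 603 and 486 at 24h (log2 -1.40 ± 0.19, adjusted p = 0.00128). Dio3, which inactivates thyroid hormone, had 6 lost and 5 lower regions and sums of 1780, 1199 and 1799 against 454, 547 and 676 (log2 -1.49 ± 0.20, adjusted p = 0.00117). Adamts15, Krr1 and Nedd4l, a ubiquitin ligase that acts on Smad proteins and ion channels, had 6 each, with log2 differences of -1.20, -1.18 and -1.11. The groups of these 5 genes did not overlap, as in 882 of the 889 lower genes.

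H3K27ac near the receptor genes of TGF-β differed in both directions. Tgfbr1, the type I receptor, was at 260, 246 and 232 at 0h and 541, 392 and 712 at 24h (log2 1.08 ± 0.20, adjusted p = 0.00515). Tgfbr2, the type II receptor, fell from 1644, 1318 and 2240 to 815, 734 and 1087 (log2 -0.96 ± 0.22, adjusted p = 0.0138). Tgfbr3 fell from 621, 467 and 659 to 243, 177 and 256 (log2 -1.33 ± 0.19, adjusted p = 0.00135), with 5 lost and 3 lower regions. The other co-receptor, endoglin (Eng), rose 3.71-fold and the type I receptor Acvr1 1.81-fold. The ligand gene Tgfb3 rose 2.03-fold, but differed by -0.00349 on the log2 scale when only regions within 100 kb counted. Tgfb1 was at 89.2, 108 and 77.8 and at 96.6, 90.8 and 91.8, and Tgfb2 at 1015, 938 and 1504 and at 857, 737 and 955, neither past the test (adjusted p = 0.959 and 0.202, the latter 0.0294 with the block). Of the 20 ligands, receptors and Smads, 4 (20%) were higher and 2 (10%) lower, against 12.4% and 6.08% of all genes, with a median log2 difference of 0.05 against -0.03 for all genes, and 4 were lower with the block.

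Of 20 feedback and target genes of the pathway, 7 (35%) were higher and none lower, against 12.4% and 6.08% of all genes. The median was 0.45, and 12 were higher with the block. Besides Pmepa1, the cytokine gene Il11 rose from 23.4, 28.9 and 21.9 to 339, 177 and 142 (log2 2.63 ± 0.31, adjusted p = 0.000645). D18Ertd653e, the earlier symbol of the receptor inhibitor Ldlrad4, rose 3.52-fold with 9 gained regions. The circadian repressor Bhlhe40 rose 2.21-fold, the Smad corepressor Ski 1.65-fold and the cell cycle inhibitor Cdkn2b 1.62-fold. Bambi, a decoy receptor, was at 0 in every 0h library and at 12.5, 40.1 and 32.9 at 24h. Smad7, the inhibitory Smad, had 5 gained and 6 higher regions and sums of 2130, 1951 and 2692 against 3586, 2408 and 3970, which overlap (adjusted p = 0.16, and 0.0157 with the block).

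Among the EMT transcription factors 6 of 12 (50%) were higher and none lower (median 0.64), against 12.4% and 6.08% of all genes. These 12 genes held 21 gained and 3 lost regions, against 4682 and 1982 for all 14626 genes. The E-cadherin repressor Snai1 rose from 339, 296 and 358 to 819, 461 and 839 (log2 1.02 ± 0.22, adjusted p = 0.0103). A region 15.6 kb from its start site (chr2:167377899-167379825) was at 55.9, 50.2 and 51.5 and then at 201, 100 and 177. Zeb1 rose 1.53-fold and Zeb2 1.94-fold, Hmga2, a chromatin protein upstream of Snai1, 2.41-fold, Foxc2 2.62-fold and Sox9 1.76-fold. Zeb1 had 5 gained regions and also a lower intronic one 16.1 kb from its start site (chr18:5619421-5620562), from 40.1, 57.7 and 54.8 to 17.9, 29.5 and 21.0. Twist1 was at 52.1, 69.0 and 65.8 and at 32.2, 18.9 and 45.9, without passing the test (adjusted p = 0.101, and 0.0499 with the block). With the block 2 of the list were lower.

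The adhesion and matrix genes of mesenchymal cells that passed the test were higher at 24h with 1 exception. In the list of cytoskeleton and adhesion 10 of 25 (40%) were higher and none lower (median 0.45), against 12.4% and 6.08% of all genes. Among the 10 were 6 integrin genes, N-cadherin and vimentin. Itgb3 rose from 211, 232 and 220 to 1134, 480 and 1191 (log2 1.92 ± 0.30, adjusted p = 0.00214). Itga5 rose 3.08-fold, Itga2 2.76-fold, Itgb5 2.05-fold, Itgb1 1.72-fold and Itgav 1.65-fold. The hyaluronan receptor Cd44 rose 3.11-fold, N-cadherin (Cdh2) 1.66-fold and vimentin (Vim) 1.44-fold. The filamin gene Flna rose 1.36-fold, but its log2 difference was -0.09 when regions with a local background over 3 times the library median were left out. For the matrix list the counts were 10 higher (31.3%) and 1 lower (3.13%) of 32 (median 0.43). Tenascin C (Tnc) rose from 713, 665 and 983 to 2084, 1517 and 2256 with 7 gained regions (log2 1.30 ± 0.20, adjusted p = 0.00226). Fibronectin (Fn1) rose 1.91-fold, Ctgf 1.84-fold, Lamb1 2.6-fold and Col4a2 1.78-fold. Col5a1 was at 16.6, 0 and 30.7 and then at 270, 75.5 and 306, and Col5a2 at 0 and then at 92.1, 18.9 and 52.9. The basement membrane gene Nid2 was the lower one, with a 24h to 0h ratio of 0.396. The fibroblast marker Col1a1, whose start-site pileup stands above, was at 357, 321 and 466 and at 612, 436 and 714 (adjusted p = 0.0733, and 0.00548 with the block), and by summed pileup 2 of the 6 fibroblast markers, Pdgfra and Dcn, were higher (log2 1.82 and 0.71). So were the endothelial markers Cdh5 and Emcn (log2 1.87 and 1.66), without a start-site peak in any library, and the adipocyte marker Adipoq (log2 1.29). The part of such cells in these results was not tested. As at Cdh5 and Emcn, no library had a start-site peak at Bambi, Foxc2, Tnc, Ltbp2, Col5a1, Col5a2 or Nid2, all called above.

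Epithelial genes showed no common direction. Of 23 junction genes 6 (26.1%) were higher and 2 (8.70%) lower (median 0.10), against 12.4% and 6.08% of all genes. With the block 4 were lower. Cldn4, a tight junction claudin, rose from 116, 129 and 147 to 917, 578 and 973 (log2 2.54 ± 0.20, adjusted p = 0.000154), with a region gained at its promoter (chr5:135423079-135424011) at 165, 95.5 and 178. Cldn6 rose 2.84-fold, Cldn3 1.59-fold, the desmosomal genes Pkp1 and Dsc2 3.43-fold and 2.39-fold, and F11r 1.5-fold. The tight junction gene Tjp3 had a ratio of 0.434 and Cxadr one of 0.650. Cldn6, Cldn3, Pkp1, Dsc2 and Tjp3 had no start-site peak in any library. E-cadherin (Cdh1) was at 1468, 1159 and 1831 at 0h and 1569, 1151 and 1854 at 24h (log2 0.03 ± 0.22, adjusted p = 0.956), with no region gained, lost or past the test. Krt8 and Krt18 were at 1158, 993 and 1200 against 1412, 1015 and 1475, and at 1038, 1028 and 1224 against 1061, 1126 and 1131, neither past the test.

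Of 18 polarity genes 1 (5.56%) was higher and 2 (11.1%) lower (median -0.24), against 12.4% and 6.08% of all genes. With the block 2 were higher and 6 lower. Llgl2, of the basolateral Scribble complex, fell from 596, 575 and 696 to 228, 362 and 308 (log2 -1.05 ± 0.18, adjusted p = 0.00337). Shroom3, which constricts the cell apex, had 5 lost regions and a ratio of 0.565. Among 17 identity regulators 3 (17.6%) were higher and 3 (17.6%) lower (median -0.19). Grhl3 fell from 464, 286 and 584 to 127, 69.6 and 198 (log2 -1.73 ± 0.35, adjusted p = 0.00751), Id2 from 2073, 1553 and 2177 to 937, 925 and 1175, and the ETS factor Ehf from 1164, 792 and 1115 to 674, 511 and 743. Gata3, a factor of luminal mammary cells, rose 2.00-fold, Elf5 5.87-fold and Tcfap2c 1.89-fold. Grhl3 and Tcfap2c had a start-site peak in no library and Elf5 in 1. Of 7 keratins 1 (14.3%) was higher and 1 (14.3%) lower (median 0.26). Krt80 rose 2.09-fold, and Krt19 fell from 1529, 1362 and 1975 to 613, 909 and 914, but had a log2 difference of 0.75 when the regions of high local background were left out.

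**Figure D4:**
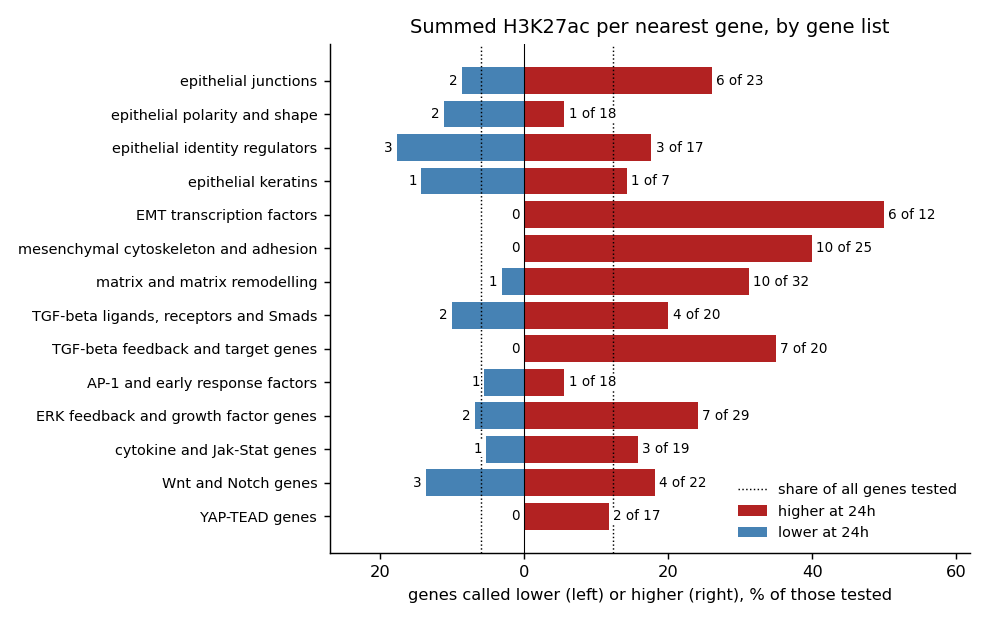
Bars give the share of genes called lower (left, blue) and higher (right, red) at 24h in each list, in % of the members tested, with the counts beside the bars. Dotted lines mark the shares among all genes tested, 6.08% lower and 12.4% higher. The 3 mesenchymal lists and the feedback genes reach 31.3% to 50% higher, and the epithelial lists lie on both sides. The lists were chosen with earlier results of these data known.

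Of 18 AP-1 and early response genes, Egr2 was higher and Ier2 lower (median -0.06), 5.56% each way against 12.4% and 6.08% of all genes. No Fos, Jun, Atf or Maf gene of the list passed the test. With the block 5 were higher and 3 lower. Fosl1 was at 386, 375 and 424 and at 378, 313 and 402, and Fosl2 at 565, 561 and 576 and at 591, 507 and 616. Junb was at 774, 663 and 1052 and at 1457, 893 and 1219, Jun at 398, 511 and 510 and at 582, 578 and 655, and Fos at 636, 810 and 739 and at 894, 921 and 984. The last 3 did not pass the test, but each did with the block (adjusted p = 0.0338, 0.0401 and 0.0331).

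Of 29 genes of ERK feedback and growth factors 7 (24.1%) were higher and 2 (6.90%) lower (median 0.30), against 12.4% and 6.08% of all genes. With the block 13 were higher and 5 lower, against 2564 and 1691 of all 14626 genes. Elk3, an ETS factor that ERK phosphorylates, rose from 326, 395 and 469 to 1142, 761 and 1165 (log2 1.33 ± 0.20, adjusted p = 0.00176). Runx2 rose 2.07-fold and Ets1 2.09-fold, the EGF receptor ligands Ereg and Areg 1.86-fold and 1.39-fold, the ERK phosphatase Dusp5 1.77-fold and Pdgfa 1.65-fold. The receptor gene Erbb3 and the inhibitor Spry1 had ratios of 0.552 and 0.636. In the cytokine list 3 of 19 (15.8%) were higher and 1 (5.26%) lower (median 0.06), near the shares of all genes. With the block 3 were higher and 3 lower. Il1rl1 rose 3.06-fold, Il6ra 2.26-fold and Jak2 1.79-fold. The gained region of highest pileup near Jak2 had a local background 19.7 times the library median, and without regions over 3 times that median the log2 difference of Jak2 was 0.47 (adjusted p = 0.586). Cxcl12 fell from 252, 200 and 264 to 110, 62.5 and 133, without a start-site peak in any library. A region near Cxcl12 (chr6:117103048-117104114) had 89.2, 76.6 and 97.6 at 0h and 19.7, 25.9 and 21.0 at 24h.

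Of 22 Wnt and Notch genes 4 (18.2%) were higher and 3 (13.6%) lower (median 0.08), against 12.4% and 6.08% of all genes. With the block 7 were higher and 2 lower. Besides Jag1, the ligand gene Wnt7a rose 2.13-fold, the receptor gene Fzd1 1.55-fold and the secreted antagonist Sfrp1 from 9.07, 0 and 0 to 41.2, 17.7 and 50.9. Wnt4 fell from 434, 470 and 512 to 216, 244 and 306, and the receptor gene Fzd7 had a ratio of 0.710. Tcf7l1, a repressor of Wnt targets, was at 10.6, 15.1 and 18.6 and then at 0 (adjusted p = 0.0444, and 0.0754 with the block). Neither Tcf7l1 nor Sfrp1 had a start-site peak in any library. Of 17 YAP-TEAD genes 2 (11.8%, against 12.4% of all genes) were higher and none lower (median 0.04), or 2 and 1 with the block. They were Amotl1, which rose 3.04-fold, and the coactivator gene Wwtr1 (TAZ), which rose 1.86-fold. Yap1 was at 187, 206 and 209 and at 209, 180 and 187.

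**Figure D5:**
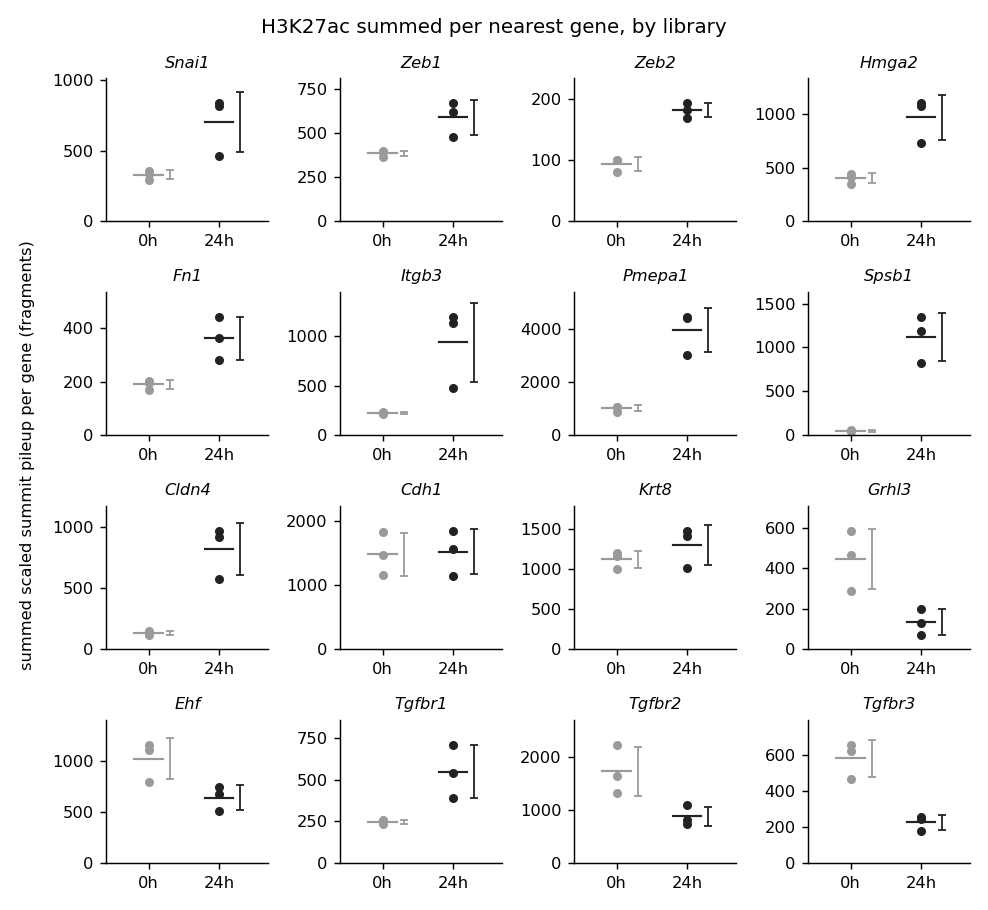
Points give the summed scaled summit pileup per gene (y axis, fragments, from 0) in each library at 0h (grey) and 24h (black) for 16 genes, with the mean as a line and the SD as a bar beside it (3 libraries a group). Cdh1 and Krt8 overlap between the groups, and the other 14 genes, all called higher or lower, do not.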

How the data were processed

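The authors aligned reads to mm9 with Bowtie and called H3K27ac peaks with MACS2, each library by itself. The deposited lists give for every peak a fold enrichment (a ratio to the local background), a −log10 p-value, a −log10 q-value and a display score, of which the score was not used. Per the deposited values, the lowest −log10 q of the 6 lists was 1.33 to 1.60. Which control entered the calling is not given in the sources used here. The summit pileup and local background were solved from fold enrichment and p with the Poisson tail (tolerance 0.005 on −log10 p, 9 of 352181 peaks unsolved). Peaks were merged where they overlapped. Each region went to the protein-coding gene with the nearest start site and to any within 1000 bp more (GENCODE models on mm9). Intronic means that the summit lay in an intron of any annotated gene, which need not be the nearest one. Libraries were scaled by their median pileup over regions with a peak in all 6. In the sum per gene, a region without a peak in a library counted as 0 there. Levels were compared with limma 3.58.1 (trend, R 4.3.3) on log2 pileup per region and on log2 of the sum plus 10 per gene, for genes with a region called in at least 3 libraries, with Benjamini-Hochberg adjustment over all regions or genes and adjusted p below 0.05. "Higher" and "lower" name these calls. Errors are standard errors with 3 libraries a group. Motifs were searched in mm9 with pysam 0.24.0.

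The labels give both groups replicate numbers 1 to 3, and these pair the libraries: deviations of log2 pileup from the group means correlated at 0.450, 0.478 and 0.683 between libraries of the same number, and at 0.0365 or below for other pairs. The fit with the number as a block is therefore given where it changes a call or moves a count by more than 1.5 times. On simulated data at 3 libraries a group, the region fit over 29951 regions recovered 24% of planted 2-fold and 84% of 3-fold differences, and the gene fit 38.8% and 57.1%. False calls numbered 2 and 15. The simulated spread was set and not estimated from these libraries, the pairing was left out, and for genes the libraries holding a peak were drawn at random. The rates in the real data may therefore differ.

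The members, gene lists, markers and motifs were chosen with earlier results of these data known. Genes and regions are named by rule: the 12 genes with the largest difference each way that moved the same way in all 3 replicate numbers, the 8 such regions each way and the 8 gained and 8 lost regions of the highest pileup rank, the 5 genes with most gained and most lost regions, and members of the 14 lists. The 10 printed sequences were chosen among these after values were seen, and so was the motif window of 1000 bp. Alternatives covered thresholds, merging, scaling, the measure, the constant added, gene assignment and leaving out each library.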

Additional observations from a re-analysis of the deposited data

How the results depend on the processing

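Counts moved by more than 1.5 times under these settings, for which the cause was not tested unless fewer peaks or regions entered by construction. Peaks with a −log10 q of at least 10 gave 2425 gained, 1014 lost, 959 higher and 565 lower regions, and 968 higher and 375 lower genes. The replicate block gave 4865 higher and 5056 lower regions and 1691 lower genes. It took 1 call from the genes named in the text, Tcf7l1. Gained and lost regions are so in every pair by definition, so their counts do not change with the pairing, and no block was fitted to motif shares, which have no test. Fold enrichment gave 390 and 456 regions, −log10 p 1452 and 1000, and the requirement of a peak in at least 3 of 6 libraries 7806 and 4176. Fewer regions were lower without centring (1118) and by percentile (991), and merging within 1000 bp left 1302 lost regions. AP-1 was found in the 100 bp around the summit in 2.52% of gained and 2.62% of lost regions, and in the 1000 bp, a window chosen after seeing the data, in 70.6% and 28.8%.

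Leaving out each library in turn gave 4923 to 9341 gained and 2088 to 3774 lost regions, 1741 to 3299 higher and 1101 to 2272 lower regions, and 955 to 1762 higher and 376 to 957 lower genes. Gained regions were 9341 without 24h replicate 2 and lost regions 3774 without 0h replicate 2, since fewer libraries had to hold a call. Counts fell most without 0h replicate 1 (1741 and 1216 regions, 1201 and 449 genes), without 24h replicate 1 (1118 lower regions, 955 and 399 genes), without 0h replicate 3 (1101 lower regions, 376 lower genes) and without 24h replicate 3 (1050 higher genes). The library-wide differences, 24h minus 0h, turned sign for median width (-68 to 32.5 bp, 32.5 without 0h replicate 1 and 9.5 without 24h replicate 2) and median pileup (-5 to 3.67, 3.67 without 0h replicate 1 and 2 without 24h replicate 2). Over the genes named by rule, 2119 of the repeated calls kept direction and threshold, 257 kept direction and missed the threshold, and 3 turned: Flna (-0.0863) and Krt19 (0.75) without regions of high local background, a setting chosen after seeing the data, and Tgfb3 (-0.00349) within 100 kb. By fold enrichment 11 of the 16 named shared regions of largest difference missed the threshold, and Fam180a turned (-0.022). By percentile Mlana missed it (-16.9, adjusted p = 0.102). Depth is unknown, so a region without a peak may lie under the calling threshold.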

Other observations

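Regions with the highest pileup rank among those gained or lost lay in domains of high local background, 6.2 to 55.4 times the library median. On chromosome 19, a region in an intron near the transcription factor gene Glis3 (chr19:28699538-28699927) was gained with 912, 495 and 900 fragments at 24h. Its fold enrichment was 1.94, 1.54 and 1.89, and its local background 55.4 times the library median. Another intronic region near Glis3 (chr19:28642702-28643193) was lost, with 177, 212 and 273 fragments at 0h and a background 14.1 times the median. Near Jak2 a region was gained (chr19:29292025-29293094, with 517, 377 and 683 at 24h) and one was lost (chr19:29312931-29313377, with 95.2, 166 and 128 at 0h). Of the chromosome's 1208 regions with a peak in all 6 libraries, 453 had a local background over 3 times the library median, against 4981 of 29951 over the genome.

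On other chromosomes and further along chromosome 19, gained regions of high rank lay near Pi4k2a, Sri, Fbln2 and Slc4a8, and an intronic one near Pmepa1 (chr2:173090900-173091775) had 323, 245 and 301 fragments at a fold enrichment of 1.496, 1.75 and 1.43. Lost ones lay near Junb, Tgif1, Dstn, Myh9, Mllt4 and Msh5. Near Junb (chr8:87503467-87503897) the lost region had 169, 201 and 227 fragments at 0h, 1.13 kb from a start site. Near Tgif1 (chr17:71100819-71101186) it had 172, 186 and 166, and a region gained at chr17:71105399-71105780 had 172, 144 and 168 at 24h. The part of the background in these calls was not tested.

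The intronic region near Morn4 (chr19:42153703-42155420), with a local background 5.54 times the median, rose from 46.9, 108 and 59.2 to 640, 480 and 782, and its fold enrichment from 2.91, 2.89 and 3.54 to 10.23, 7.58 and 11.8 (limma, log2 difference of fold enrichment 1.65, adjusted p = 0.00119).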
